A study of Mus musculus with 6 samples.

Results

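Parvalbumin interneuron nuclei were taken from 6 single-nucleus RNA libraries of the brains of mice 9 months old. The nuclei were selected on measured counts of 6 genes. A nucleus entered when it held 500 or more RNA molecules (UMIs) of 300 or more genes, no more than 5% of them mitochondrial, with at least 2 UMIs of Gad1 and Gad2 together and at least 2 of Pvalb. It could hold no more than 2 UMIs of Sst, none of Vip and no more than 1 of Slc17a7. The gate passed 191 of 77421 kept nuclei, with 1031143 UMIs in all. Of these, 51 came from TAFE4_tam, 46 from TAFE4_oil, 28 from FE4, 19 from TAFE3_tam, 35 from TAFE3_oil and 12 from FE3.

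The TAFE4 mice were P301S APOE4 fl/fl Aldh1la1CreERT and received tamoxifen (TAFE4_tam) or oil (TAFE4_oil). FE4 mice were APOE4 fl/fl and untreated. The TAFE3 mice were P301S APOE3 fl/fl Aldh1la1CreERT, again with tamoxifen (TAFE3_tam) or oil (TAFE3_oil), and FE3 mice were APOE3 fl/fl and untreated. All 6 groups were of strain B6 and carried floxed human APOE, each group had 1 library, and how many animals went into it is not given in the sources at hand. P301S is a human tau mutation of frontotemporal dementia, and Aldh1l1-driven CreERT lines direct tamoxifen-dependent recombination to astrocytes. Oil, Cre and P301S tau all separate the TAFE oil mice from FE mice and cannot be told apart. Tamoxifen came with the deletion, and these cannot be told apart either. As tissue, the sample titles give hippocampus, while the protocol describes a frozen left hemisphere.

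Parvalbumin interneurons are inhibitory neurons that fire fast, brief action potentials and contact the soma, proximal dendrites or axon initial segment of principal cells. Their speed rests on Kv3 potassium channels, on tightly coupled GABA release and on a large supply of ATP, and many are wrapped in a perineuronal net. In the hippocampus they pace gamma rhythms and take part in sharp-wave ripples.

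The label was checked against markers that the gate did not use. Btbd11 had a UMI in 95 of 191 nuclei, Kcnc1 in 181, Nxph1 in 153, Satb1 in 111, Syt2 in 85, Lhx6 in 60 and Tac1 in 57. Lhx6 was read in 0 of the 12 FE3 nuclei. A nucleus held a UMI of 2 to 15 of the 24 listed parvalbumin markers, with a median of 9. Other GABA nuclei held up to 16 of these markers, with a median of 4. Lhx8 and Gbx1, markers of pallidal neurons, had 0 UMIs. At least 1 of 6 pallidal or striatal markers was read in 16 nuclei, and at least 1 of 5 thalamic reticular markers in 38. Among 3891 other GABA nuclei these numbers were 373 and 978. As a share of UMIs, the reticular list was higher in parvalbumin than in other GABA nuclei in FE3, and lower in every other library. The median parvalbumin nucleus held 4854 UMIs in TAFE4_tam, 4389.5 in TAFE4_oil, 4926 in FE4, 5609 in TAFE3_tam, 5223 in TAFE3_oil and 3634.5 in FE3, where other GABA nuclei held medians from 3232 to 3636. A gate that asks for 2 UMIs of Pvalb takes deeper nuclei, and shares of nuclei with a UMI are not matched for depth between classes.

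The gate cut through a steep slope. Among GABA nuclei that passed its other conditions, TAFE4_tam had 54 nuclei with 1 Pvalb UMI just outside, and 29 with 2, 12 with 3 and 10 with 4 or more inside. TAFE4_oil had 56 just outside, and 26, 11 and 9 inside. FE4 had 29 outside, and 20, 6 and 2 inside. TAFE3_tam had 31 outside, and 11, 4 and 4 inside, while TAFE3_oil had 60 outside, and 25, 7 and 3 inside. FE3 had 30 outside, and 7, 5 and 0 inside. Part of the other GABA class can therefore be parvalbumin cells whose Pvalb was missed.

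Several nuclei stood apart. A nucleus of TAFE3_tam carried 68 UMIs of Pcp2, 44 of Car8 and 13 of Pvalb, of which Pcp2 and Car8 mark cerebellar Purkinje cells. With 19584 UMIs it made up 15.2% of the parvalbumin UMIs of that library, so results that rest on TAFE3_tam are given with and without it. In all, 21 of 191 nuclei held at least 10 UMIs of the marker list of another class. Oligodendrocyte markers did so in 9 nuclei (4.71%), excitatory markers in 5 (2.62%) and astrocyte markers in 4 (2.09%). The shares of other GABA nuclei for these lists were 4.70%, 2.52% and 2.75%. Vip markers did so in 2 parvalbumin nuclei, and Sst, Lamp5, microglia and cerebellar markers in 1 each. The summed level of the astrocyte list ran from 276 to 648 over the libraries, in counts scaled to a common total (CPM), in parvalbumin nuclei, against 593 to 1054 CPM in other GABA nuclei. The doublet caller marked 14 of the 191 nuclei. They were kept, and the counts of genes called without them stand with the alternatives. Library pairs shared 65 to 83 barcodes, of which 0 were parvalbumin nuclei. The libraries held 39050503 to 49083723 UMIs over 14762 to 18171 barcodes.

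Parvalbumin nuclei made up 2.70% to 6.50% of GABA nuclei. They were 51 of 785 GABA nuclei in TAFE4_tam (6.50%, exact 95% binomial interval 4.88 to 8.45%), 46 of 1127 in TAFE4_oil (4.08%, 3.00 to 5.41%) and 28 of 516 in FE4 (5.43%, 3.64 to 7.75%). They were 19 of 703 in TAFE3_tam (2.70%, 1.63 to 4.19%), 35 of 609 in TAFE3_oil (5.75%, 4.04 to 7.90%) and 12 of 342 in FE3 (3.51%, 1.83 to 6.05%). The TAFE3_tam share stood lowest and the TAFE4_tam share highest, and their intervals did not overlap. With 1 library per group no difference between groups could be tested, and every interval between libraries covers counting error only.

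**Figure D1:**
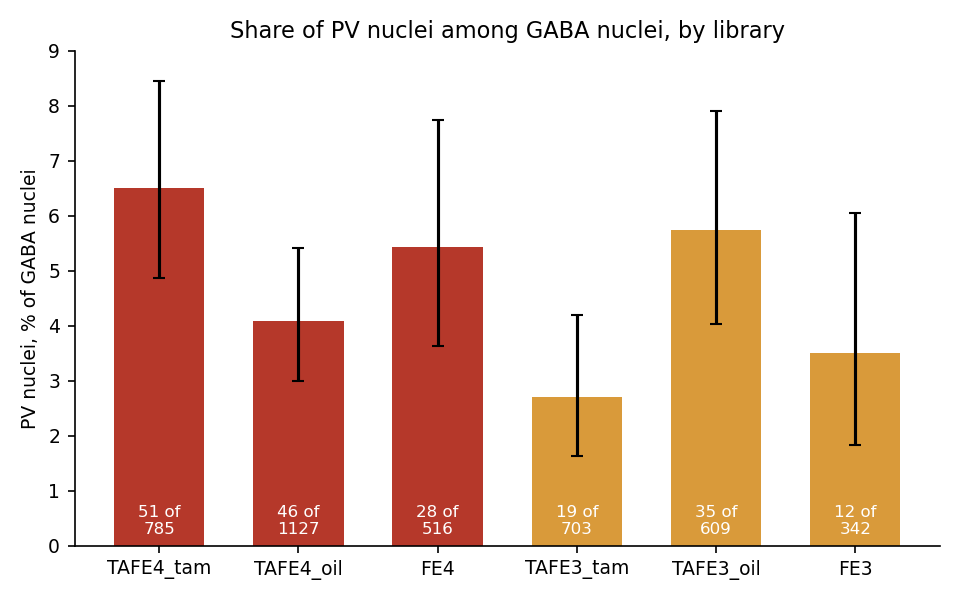
Parvalbumin nuclei as a percentage of GABA nuclei (vertical axis) in each of the 6 libraries (horizontal axis), with exact 95% binomial intervals and the numbers of nuclei printed in each bar (PV, parvalbumin; red, APOE4; yellow, APOE3). TAFE4_tam was at 6.50% and TAFE3_tam at 2.70%, and the other 4 libraries lay between 3.51% and 5.75%.

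The difference in share between tamoxifen and oil libraries had opposite signs in the APOE3 and APOE4 mice under this gate. It kept them under some other settings but not under all. On the log2 scale the share was −1.09 (95% interval −1.98 to −0.24) in TAFE3_tam against TAFE3_oil, and 0.67 (0.07 to 1.28) in TAFE4_tam against TAFE4_oil. As a share of all kept nuclei the same comparisons gave −0.78 (−1.67 to 0.07) and 0.00. At no more than 1% mitochondrial UMIs the share of GABA nuclei was 5.56% in TAFE3_tam and 6.85% in TAFE3_oil, and 6.14% in TAFE4_tam and 6.22% in TAFE4_oil. With each nucleus thinned to 1500 UMIs, which left 1 to 5 parvalbumin nuclei a library, it was 0.797% in TAFE3_tam and 0.424% in TAFE3_oil, and 1.61% in TAFE4_tam and 0.444% in TAFE4_oil. The signs stayed opposite at 3 or more Pvalb UMIs, with 8 of 703 GABA nuclei in TAFE3_tam and 10 of 609 in TAFE3_oil. TAFE4_tam then had 22 of 785 and TAFE4_oil 20 of 1127. They also stayed opposite with no mitochondrial limit, with at least 1000 UMIs per nucleus and without the called doublets. The tau comparisons gave 0.71 (−0.27 to 1.79) in TAFE3_oil against FE3 and −0.41 (−1.12 to 0.32) in TAFE4_oil against FE4, and both intervals covered 0. As a share of all kept nuclei they gave 1.46 (0.48 to 2.54) and 1.06 (0.35 to 1.79), and the second had the opposite sign. Fewer parvalbumin cells and less Pvalb RNA per cell cannot be told apart here, since the gate counts Pvalb UMIs. Pvalb summed over all GABA nuclei, a level that no Pvalb gate touches, was 72.9 CPM in TAFE4_tam, 66.8 in TAFE4_oil, 48.9 in FE4, 36.8 in TAFE3_tam, 68.4 in TAFE3_oil and 55.6 in FE3. That level also stood lowest in TAFE3_tam, at −0.90 (−1.26 to −0.53) against TAFE3_oil, and at 0.13 in TAFE4_tam against TAFE4_oil.

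Pvalb was also read in excitatory nuclei, which should lack it. It was at 6.59 CPM in TAFE4_tam, 15.2 in TAFE4_oil, 3.03 in FE4, 3.60 in TAFE3_tam, 11.2 in TAFE3_oil and 5.91 in FE3, and from 0.160% to 0.910% of them held 2 or more UMIs. Their median depth was 3180 to 3680 UMIs. A gate without Pvalb, on at least 2 UMIs of Btbd11 and at least 1 of Lhx6, found 59 nuclei, 13 of which were also in the Pvalb gate. There Pvalb was at 222 CPM (136 to 343) in TAFE4_tam, 146 (72.8 to 261) in TAFE4_oil, 44.2 (5.36 to 160) in FE4, 56.4 (6.83 to 204) in TAFE3_tam, 210 (95.8 to 398) in TAFE3_oil and 324 (39.2 to 1169) in FE3. These levels rest on 2 to 20 UMIs a library, and the lower bounds in FE4 and TAFE3_tam lay near the levels in excitatory nuclei.

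To learn which genes set parvalbumin nuclei apart from other inhibitory neurons, UMIs were summed per library and class and the classes compared over the 6 libraries with edgeR's quasi-likelihood test, each library serving as its own block. The 3891 other GABA nuclei served as one reference, and the 516 somatostatin (Sst) nuclei, which arise from the same embryonic eminence, as another. All p-values below are Benjamini-Hochberg adjusted over all genes tested, 8821 and 4377. Against other GABA nuclei, 497 genes rose (5.63%) and 593 fell (6.72%), together 12.4%. Against Sst nuclei, 339 rose (7.75%) and 317 fell (7.24%), together 15%. The 6 libraries differ in genotype and treatment, and the p-values measure the spread of the class difference among them. Without TAFE4_tam, which holds the most parvalbumin nuclei, the counts were 313 and 387 against other GABA nuclei and 216 and 233 against Sst nuclei. Genes named below as changed within a list kept their call whichever library was left out. Among those named against other GABA nuclei, Btbd11, Kcnc2, Cacna1a, Gabrd, Gria1, Hapln1, Timp3, Chrm2, Nefm, Sptbn4 and Atp2b2 lost it at no more than 1% mitochondrial UMIs, a setting that leaves 4 libraries.

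Syt2, the calcium sensor of fast release at parvalbumin terminals, rose most among the genes named higher in both comparisons. It stood at 121.7 CPM in TAFE4_tam parvalbumin nuclei, 133.4 in TAFE4_oil, 102.8 in FE4, 139.8 in TAFE3_tam, 173.6 in TAFE3_oil and 123.3 in FE3, against 12.32 to 26.1 CPM in the other GABA nuclei of these libraries. The groups did not overlap. The log2 difference was 2.86 ± 0.19 (SE, adjusted p = 3.06e-21), and against Sst nuclei it was 4.56 ± 0.31 (adjusted p = 1.09e-15). The Syt2 gene (ENSMUSG00000026452) lies at chr1:134646677-134762593 on the plus strand of GRCm38, and Pvalb (ENSMUSG00000005716) at chr15:78191114-78206400 on the minus strand.

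The 250 bases before the first RefSeq start of Syt2 and of Pvalb (GRCm38.p6) are shown. Pvalb is a gate gene, and Syt2 rose most among the genes named higher. The letters AAGGTCA, read on either strand as AAGGTCA or TGACCTT, are the core bound by estrogen-related receptors, partners of the coactivator encoded by Ppargc1a. Capitals mark the match. The Syt2 window is chr1:134646362-134646611 (plus strand), and its match lies on the opposite strand and begins 167 bases before the start. The Pvalb window is chr15:78206401-78206650 (minus strand) and has no match, which says only that these letters are not in it.
Syt2: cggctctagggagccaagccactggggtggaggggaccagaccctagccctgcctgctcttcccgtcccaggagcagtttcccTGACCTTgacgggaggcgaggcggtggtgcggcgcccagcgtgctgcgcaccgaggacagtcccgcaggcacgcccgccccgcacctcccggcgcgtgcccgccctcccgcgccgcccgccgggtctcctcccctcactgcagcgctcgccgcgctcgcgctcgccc
Pvalb: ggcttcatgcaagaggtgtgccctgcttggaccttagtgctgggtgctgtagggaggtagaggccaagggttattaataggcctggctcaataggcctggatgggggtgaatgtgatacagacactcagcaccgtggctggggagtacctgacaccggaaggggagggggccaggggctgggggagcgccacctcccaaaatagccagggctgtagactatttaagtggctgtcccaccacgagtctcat
Of genes with a window in the RefSeq table, 4.70% (1271 of 27025) held the letters in at least 1 window. Among genes tested against other GABA nuclei the share was 3.54% (235 of 6635), among those that rose 6.61% (24 of 363) and among those that fell 4.01% (17 of 424). These shares are a description, and a match is not a site of binding. Of the 12 genes named higher against other GABA nuclei 7 had a window, and Syt2 alone held the letters. The window before a later Syt2 start had no match, nor had those of Kcnc1, Col16a1, Ppargc1a, Cplx1 and Btbd11.

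Other genes named higher against other GABA nuclei were membrane, matrix and signalling genes. Col16a1, a collagen, averaged 149 ± 38.0 CPM in parvalbumin nuclei and 33.9 ± 5.50 CPM in other GABA nuclei (SD, n = 6 libraries), a log2 difference of 2.16 ± 0.17. Kcnab3, an auxiliary subunit of Kv1 channels, averaged 150 ± 65.2 CPM in parvalbumin nuclei and 41.1 ± 7.18 CPM in other GABA nuclei (1.86 ± 0.17). Tmem108 averaged 569 ± 91.5 against 218 ± 36.3 CPM (1.47 ± 0.09), and Cacna2d2, an auxiliary calcium channel subunit, 711 ± 112 against 282 ± 26.8 CPM (1.37 ± 0.09). Ahr, Phlda1, Inpp5j, Tmem44, Ank1, Cemip and Coro6 completed the 12 named, at log2 differences from 1.22 for Coro6 to 1.68 for Ahr. All 12 were higher in 6 of 6 libraries, as the rule that chose them required. The largest adjusted p among them, that of Cemip, was 6.36e-11.

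Genes named lower against other GABA nuclei include several known from other interneurons. Reln, the reelin gene, averaged 10.9 ± 7.29 CPM in parvalbumin nuclei and 150 ± 22.6 CPM in other GABA nuclei (log2 difference −3.55 ± 0.27). Cnr1, the cannabinoid receptor of cholecystokinin basket cells, stood at 32.2 CPM in TAFE4_tam parvalbumin nuclei, 44.46 in TAFE4_oil, 58.71 in FE4, 46.61 in TAFE3_tam, 295.6 in TAFE3_oil and 20.56 in FE3, and averaged 582 ± 82.4 CPM in other GABA nuclei (−2.54 ± 0.18). The high TAFE3_oil value held 63 UMIs, 28 of them in a single nucleus. Sema3c (−3.60), Adarb2 (−3.29), Rgs12 (−2.97), Npy (−2.32), Serpine2 (−2.28) and Cacna2d1 (−2.25) made up the rest. The gate itself removed nuclei with Vip or with Sst, so lower markers of those classes are not independent of it, and the same holds for the lists of Sst markers (0 rose and 5 fell of 6, 3 of them without TAFE4_tam) and Vip markers (0 and 4 of 4).

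Against Sst nuclei, the genes named higher after Syt2 and Col16a1 (3.62 ± 0.26) were led by Cemip (2.91), a hyaluronan-binding protein, and Trps1 (2.27), a transcription factor. Erbb4, the neuregulin receptor, averaged 172 ± 47.5 CPM in parvalbumin nuclei and 47.8 ± 23.2 CPM in Sst nuclei (1.86 ± 0.20, adjusted p = 6.06e-10). Against other GABA nuclei Erbb4 was at 0.35 (adjusted p = 0.0653). Gabrd, the delta subunit of extrasynaptic GABA-A receptors, averaged 100.2 ± 18.9 CPM in parvalbumin nuclei and 27.5 ± 6.78 CPM in Sst nuclei (1.92 ± 0.23). Lower against Sst nuclei were Npy (−4.02), Reln (−3.81), the NMDA receptor subunit gene Grin3a (−3.12), Man1a (−2.93), Elfn1 (−2.90), Synpr (−2.51), Cacna2d3 (−2.16) and Serpine2 (−2.03). Elfn1, a postsynaptic protein that shapes facilitating input onto Sst cells, averaged 14.2 ± 10.2 CPM in parvalbumin nuclei and 117.5 ± 12.5 CPM in Sst nuclei.

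The list of parvalbumin markers rose broadly. Of 24 members 22 were tested against other GABA nuclei, and 18 rose and 0 fell, with a median log2 difference of 0.93 where the median of all tested genes was −0.01. Of the 18, 11 kept their call whichever library was left out, among them Slit2 (1.84 ± 0.20), a guidance factor, Plcxd3 (1.72), Btbd11 (1.04 ± 0.15), Satb1 (0.95), a chromatin organiser of eminence-derived interneurons, and Cntnap4 (0.96). Lhx6, the transcription factor of that lineage, was at 0.35 (adjusted p = 0.316). Against Sst nuclei 10 of 16 tested rose, with a median of 1.49, and 1, Nxph1, fell, a call that was lost without TAFE3_tam or TAFE4_tam. There Satb1 was at −0.26 (adjusted p = 0.185).

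Channels of fast spiking moved both ways. Of 25 members tested against other GABA nuclei 11 rose and 3 fell, with a median of 0.43. Kcnc1, the Kv3.1 channel, stood at 1209 CPM in TAFE4_tam parvalbumin nuclei, 991.5 in TAFE4_oil, 983.4 in FE4, 458.3 in TAFE3_tam, 736.7 in TAFE3_oil and 1192 in FE3, against 365.4 to 499.9 CPM in other GABA nuclei. The TAFE3_tam value lay within the range of the other GABA values, and the other 5 lay above it. Without the nucleus with cerebellar markers Kcnc1 was at 540.6 CPM in TAFE3_tam, above that range as well. The log2 difference was 1.17 ± 0.09 (adjusted p = 8.87e-19). Kcnc2 (Kv3.2) rose by 0.72 ± 0.15, while against Sst nuclei Kcnc2 was at 0.07 (adjusted p = 0.848). Kcna1, a Kv1 channel of axons, averaged 669 ± 172 CPM in parvalbumin nuclei and 345 ± 39.8 CPM in other GABA nuclei (1.07 ± 0.09). Among sodium and calcium channels, Scn8a (0.54 ± 0.11) and Cacna1a (0.48 ± 0.10), the P/Q channel that drives release, rose. The potassium channel genes Kcnd3 (−1.33), Kcnq5 (−2.43) and Kcnt2 (−2.11) fell. Against Sst nuclei 9 of 19 rose and 1, Kcnd3, fell, with a median of 0.24.

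**Figure D2:**
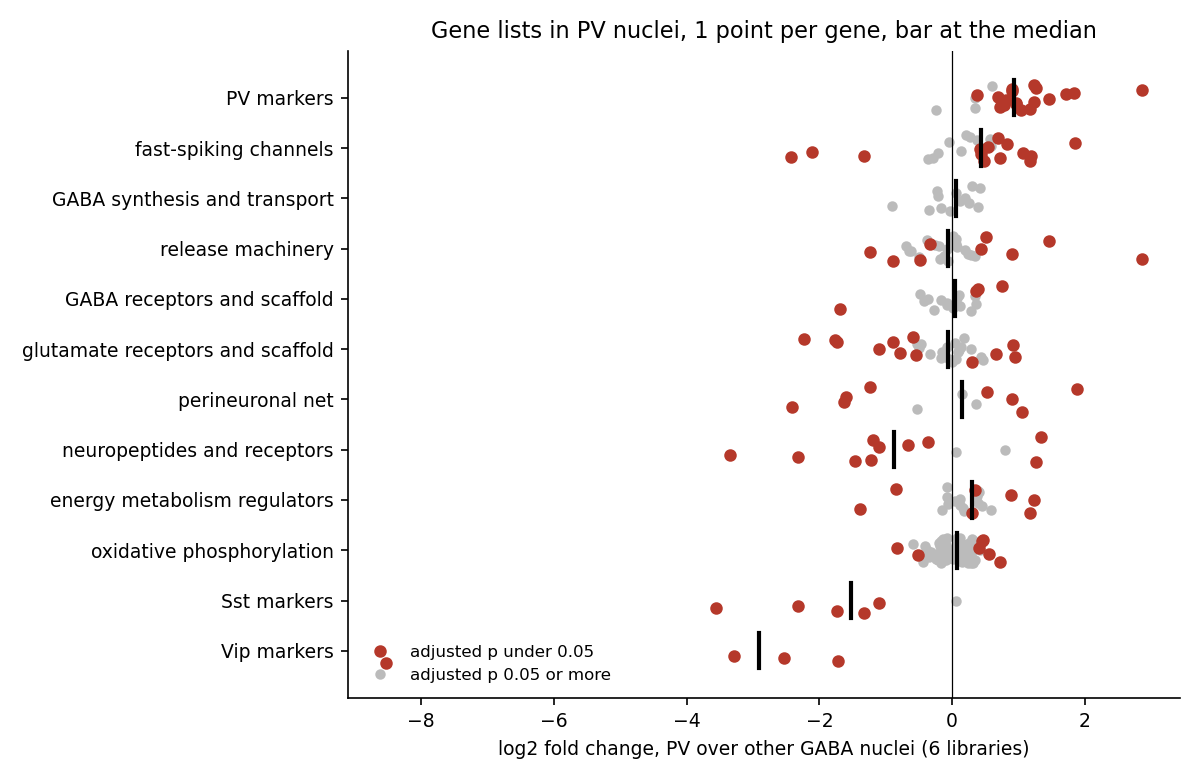
Log2 difference of parvalbumin over other GABA nuclei (horizontal axis) for the tested members of 12 gene lists (vertical axis), with 1 point per gene, red where the adjusted p was under 0.05 and grey otherwise, and a bar at the list's median. The bar of parvalbumin markers lies at 0.93, that of fast-spiking channels at 0.43 and that of neuropeptides and receptors at −0.88.

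Genes of GABA synthesis and transport other than the gate genes gave no call. Of 13 tested against other GABA nuclei 0 rose and 0 fell, with a median of 0.05, and Slc32a1, the vesicular GABA transporter, averaged 236 ± 58.8 CPM in parvalbumin nuclei and 252 ± 38.0 CPM in other GABA nuclei. In the release machinery 5 of 29 rose and 4 fell, and 3 rose and 0 fell of these without TAFE4_tam. Beside Syt2 only Vamp1, a fast-releasing vesicle SNARE, kept its call whichever library was left out. Vamp1 averaged 71.9 ± 24.3 CPM in parvalbumin nuclei and 28.6 ± 5.24 CPM in other GABA nuclei (1.46 ± 0.22). Against Sst nuclei Vamp1 (1.30) and Syt7 (0.66) rose.

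Subunits of GABA and glutamate receptors moved in both directions. Gabrd rose against other GABA nuclei (0.76 ± 0.17) and Gabra2 fell (−1.69 ± 0.35), out of 3 that rose and 1 that fell of 18. Of the 3, 1 kept its call without TAFE3_oil or without TAFE4_oil. Against Sst nuclei Gabrb2 (0.91) and Gabrg3 (1.51) rose with Gabrd. Of 30 glutamate receptor and scaffold genes 4 rose and 8 fell against other GABA nuclei, with a median of −0.07. Of the 8, 4 kept their call without TAFE3_oil, and 5 without FE4 or TAFE4_oil. The AMPA receptor gene Gria3 averaged 1080 ± 181 CPM in parvalbumin nuclei and 604 ± 83.7 CPM in other GABA nuclei (0.95 ± 0.08), and Gria4, which gives fast AMPA currents, 366.5 ± 102 against 234 ± 17.7 CPM (0.66 ± 0.10). Cacng2, their auxiliary subunit stargazin, rose by 0.92 ± 0.15, and Gria1 by 0.29. The NMDA receptor gene Grin2a averaged 347 ± 50.2 CPM in parvalbumin nuclei and 796 ± 185 CPM in other GABA nuclei (−1.10 ± 0.10). Grik1, a kainate receptor gene, averaged 5.76 ± 5.89 against 34.2 ± 3.59 CPM (−2.24 ± 0.44).

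In the perineuronal net list 4 members rose and 4 fell of 11 tested, out of 25 listed, and 2 of the 4 that rose kept their call without TAFE4_oil. Bcan, the proteoglycan brevican, averaged 119 ± 31.9 CPM in parvalbumin nuclei and 64.1 ± 10.6 CPM in other GABA nuclei (1.05 ± 0.17), and rose against Sst nuclei as well (1.56). Adamts15, a protease of such proteoglycans, rose by 1.88 ± 0.31. Vcan (−2.41), Hapln1 (−1.63), Ptprz1 (−1.60) and Timp3 (−1.24) fell against other GABA nuclei. Synaptic adhesion genes were split, with 6 up and 7 down of 32. Nrxn2 (−0.52) and Nrxn3 (−0.53), presynaptic neurexin genes, fell. Cntnap5a (0.91) rose. Of 15 trophic and neuregulin signalling genes 2 rose and 2 fell, with Ntrk3, the receptor of neurotrophin 3, at 1.16 ± 0.14 and Gfra1, a co-receptor of glial neurotrophic factors, at 1.56. Fgfr1, chosen here after its values were seen, lost its call without FE3, FE4, TAFE4_oil or TAFE4_tam, which left 1 that fell.

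Genes that govern energy supply rose in part. Of 23 energy metabolism regulators 5 rose and 2 fell against other GABA nuclei, with a median of 0.30, and 3 of the 5 kept their call without TAFE4_oil or without TAFE4_tam. Ppargc1a, the coactivator PGC-1alpha of mitochondrial genes, stood at 139.6 CPM in TAFE4_tam parvalbumin nuclei, 164.5 in TAFE4_oil, 161.5 in FE4, 132.1 in TAFE3_tam, 168.9 in TAFE3_oil and 226.1 in FE3, and averaged 72.7 ± 7.70 CPM in other GABA nuclei. Its log2 difference was 1.18 ± 0.15 (adjusted p = 2.47e-09), and against Sst nuclei 1.00 (adjusted p = 2.5e-05). Cycs, cytochrome c, rose by 0.88 ± 0.16, while Ldha, lactate dehydrogenase A, fell (−1.39 ± 0.32). Of 71 nuclear genes of oxidative phosphorylation 5 rose and 2 fell, with a median of 0.07, and without TAFE4_tam 1 and 0 of these kept their call, the 1 being Ndufa10. Of 12 mitochondrially encoded genes 0 rose and 4 fell (median −0.18), 2 of them without FE4 or TAFE4_oil. Of 77 ribosomal protein genes 0 rose and 22 fell (median −0.34), and 7 of the 22 kept their call without TAFE4_tam, 10 without TAFE3_oil, 14 without TAFE4_oil and 0 at no more than 1% mitochondrial UMIs. Against Sst nuclei 0 of 74 ribosomal protein genes rose and 2 fell (median −0.25).

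Among axonal and calcium-handling genes, Nefm, a neurofilament subunit, averaged 80.1 ± 29.7 CPM in parvalbumin nuclei and 34.8 ± 4.87 CPM in other GABA nuclei (1.28 ± 0.21), within 4 that rose and 1 that fell of 20, the call of the 1, Stmn2, being lost without FE4, TAFE4_oil or TAFE4_tam. Ank1 (1.46), an ankyrin, and Sptbn4 (0.52), the spectrin of the axon initial segment, rose with it. Of 23 calcium buffers and pumps other than Pvalb 2 rose and 6 fell, among them the plasma membrane pump gene Atp2b2 (0.42), which rose. The call of Itpr1, the other that rose, was lost without TAFE3_tam, and 3 of the 6 kept theirs without TAFE4_tam.

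Neuropeptides and their receptors mostly fell, with 2 up and 8 down of 12 tested and a median of −0.88. Without TAFE3_oil 5 of the 8 kept their call. Cck averaged 137 ± 21.4 CPM in parvalbumin nuclei and 357.5 ± 70.1 CPM in other GABA nuclei (−1.23 ± 0.12), and Penk (−3.34) and Vgf (−0.67 ± 0.13) fell. The muscarinic receptor gene Chrm2 (1.35) rose. Tac1, the substance P precursor carried by a part of parvalbumin cells, stood at 193.2 CPM in TAFE4_tam parvalbumin nuclei, 240.1 in TAFE4_oil, 102.7 in FE4, 62.15 in TAFE3_tam, 93.84 in TAFE3_oil and 143.9 in FE3. The other GABA nuclei held 44.84 to 85.61 CPM. Tac1 was higher in 5 of 6 libraries, with TAFE3_tam the exception, and its log2 difference was 1.26 ± 0.17 (adjusted p = 6.95e-09). Without the nucleus with cerebellar markers Tac1 was at 73.3 CPM in TAFE3_tam.

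Receptors of apolipoprotein E and lipid uptake fell in part, with 0 up and 8 down of 18 and a median of −0.54. Reln, a ligand of these receptors and a member of the list, was among them, as were Sorcs3 (−2.08), a sorting receptor, Vldlr (−1.30) and Dab1 (−1.20), its adaptor. Lrp8, the other reelin receptor gene, was at 0.05 (adjusted p = 0.905). Against Sst nuclei 1 of 9 members tested, Lrp1b, rose and 2 fell, with a median of −0.11. Mouse Mapt, the tau gene, averaged 252 ± 66.9 CPM in parvalbumin nuclei and 271 ± 57.9 CPM in other GABA nuclei (−0.03, adjusted p = 0.918). Markers of glia were lower in parvalbumin nuclei, with 5 of 6 astrocyte and 3 of 5 oligodendrocyte markers falling against other GABA nuclei, and 0 of 3 in each list against Sst nuclei. Without TAFE4_tam 3 of the 5 and 1 of the 3 kept their call. The part of such markers in the other differences was not tested.

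The genes whose levels most resembled Pvalb over 24 points (4 interneuron classes in 6 libraries) were Col16a1 (Pearson r = 0.895), Syt2 (0.880), Kcna1 (0.869), Cdh12 (0.866) and Fam98c (0.860), out of 10321 genes ranked. The points share libraries and the gate set the Pvalb of each class, so these are descriptions.

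Between libraries, the parvalbumin nuclei were compared without a test. A gene needed 20 or more UMIs in the pair of libraries, and it is counted as past the fold at a log2 ratio of 1 or more in size with at least 50 UMIs. Comparisons that have a library in common are not independent of each other. Ratios are of CPM, and another scaling (TMM) would shift every ratio by 0.35 in TAFE3_oil against FE3, 0.32 in FE4 against FE3, −0.19 in TAFE4_oil against TAFE3_oil, −0.16 in TAFE4_oil against FE4, 0.14 in TAFE4_tam against TAFE4_oil, −0.06 in TAFE3_tam against TAFE3_oil and 0.01 in TAFE4_tam against TAFE3_tam.

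Human APOE, the deleted gene, was read in all 6 sets of parvalbumin nuclei. It stood at 1056 CPM in TAFE4_tam, 1236 in TAFE4_oil, 719.2 in FE4, 442.8 in TAFE3_tam, 1319 in TAFE3_oil and 699 in FE3. Other GABA nuclei held 1102 CPM in TAFE4_tam, 2339 in TAFE4_oil, 1416 in FE4, 969.8 in TAFE3_tam, 2086 in TAFE3_oil and 919.9 in FE3. The log2 ratio of APOE was −1.57 (−2.01 to −1.16) in TAFE3_tam against TAFE3_oil, and −1.39 (−1.83 to −0.97) without the nucleus with cerebellar markers. It was −0.23 (−0.47 to 0.01) in TAFE4_tam against TAFE4_oil. APOE was spread unevenly among the nuclei. Over 190 parvalbumin nuclei, without the one with cerebellar markers, a single nucleus held 120 of the 1041 APOE UMIs. The intervals cover counting error only and leave out such unevenness, and its part in the APOE ratios was not tested. The part of free RNA from other cells in these levels was not tested. The mouse prion gene Prnp, whose promoter drives P301S tau in a widely used line, stood at 171.7 CPM in TAFE4_tam, 168.9 in TAFE4_oil, 51.37 in FE4, 163.1 in TAFE3_tam, 183 in TAFE3_oil and 41.12 in FE3. All 4 tau libraries lay above both libraries without tau.

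Parvalbumin nuclei of tau mice were set against those without tau in each APOE background. In TAFE3_oil against FE3, 21 of 500 genes were past the fold upwards (4.2%) and 18 downwards (3.6%), 7.8% in all, and 42 and 3 with TMM scaling. In TAFE4_oil against FE4, 82 of 897 were past it upwards (9.14%) and 6 downwards (0.669%), 9.81% in all, and 63 and 13 with TMM. Of the 82, 9 were mitochondrially encoded, 5 genes of oxidative phosphorylation and 4 ribosomal protein genes. Both pairs gave the same sign in 141 of 256 eligible genes.

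Of these, Pde10a, a cyclic nucleotide phosphodiesterase, led those lower with tau. It stood at 342.5 CPM in TAFE3_oil and 616.7 in FE3 (−0.85, −1.48 to −0.18), and at 333.4 CPM in TAFE4_oil and 689.9 in FE4 (−1.05, −1.51 to −0.60). The splicing factor gene Srsf2 stood at 656.9 CPM in TAFE3_oil and 1007 in FE3 (−0.62, −1.10 to −0.12), and at 631.3 CPM in TAFE4_oil and 1057 in FE4 (−0.74, −1.09 to −0.40). Among genes higher with tau in both pairs, Paxbp1 stood at 309.7 CPM in TAFE3_oil and 102.8 in FE3 (1.59, 0.30 to 3.26), and at 293.4 CPM in TAFE4_oil and 139.4 in FE4 (1.07, 0.32 to 1.89). Map1b, a microtubule-associated protein gene, gave 0.87 (−0.36 to 2.38) and 1.46 (0.64 to 2.37) in the same pairs. The FE3 side of these ratios rests on 12 nuclei.

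Transcripts of mitochondria, ribosomes and oxidative phosphorylation stood low in the FE4 nuclei, and the mitochondrial ones also in TAFE4_tam. The median log2 ratio of mitochondrially encoded genes was 1.77 in TAFE4_oil against FE4 and −1.80 in FE4 against FE3. Ribosomal protein genes gave 1.06, with 65 of 65 higher, in TAFE4_oil against FE4, and genes of oxidative phosphorylation 1.04, with 51 of 56 higher, where the median of all genes was 0.24. Other GABA nuclei gave 1.38, 1.01 and 0.85 for these 3 lists in the same comparison. The median mitochondrial share of a parvalbumin nucleus was 0.575% in TAFE4_tam, 1.48% in TAFE4_oil, 0.375% in FE4, 1.13% in TAFE3_tam, 1.28% in TAFE3_oil and 1.48% in FE3. A single gene that was low in FE4 was Cox4i1, a cytochrome oxidase subunit, at 346.8 CPM in TAFE4_oil and 66.05 in FE4 (2.39, 1.39 to 3.57). The part of this shift in the other ratios against FE4 was not tested.

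In the tau comparisons parvalbumin markers had a median of −0.09 over 13 members in TAFE3_oil against FE3 and 0.23 over 17 in TAFE4_oil against FE4, beside −0.06 and 0.24 for all genes. The first turns to 0.26 with TMM scaling, where all genes are at 0.29. Fast-spiking channels had medians of −0.39 over 14 members and 0.41 over 19, and −0.04 and 0.26 with TMM. Kcnc1 stood at 736.7 CPM in TAFE3_oil and 1192 in FE3 (−0.69, −1.14 to −0.23), and at 991.5 CPM in TAFE4_oil and 983.4 in FE4 (0.01). Scn1a, the sodium channel whose loss causes Dravet syndrome, stood at 457.9 CPM in TAFE4_oil and 212.8 in FE4 (1.10, 0.50 to 1.75).

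**Figure D3:**
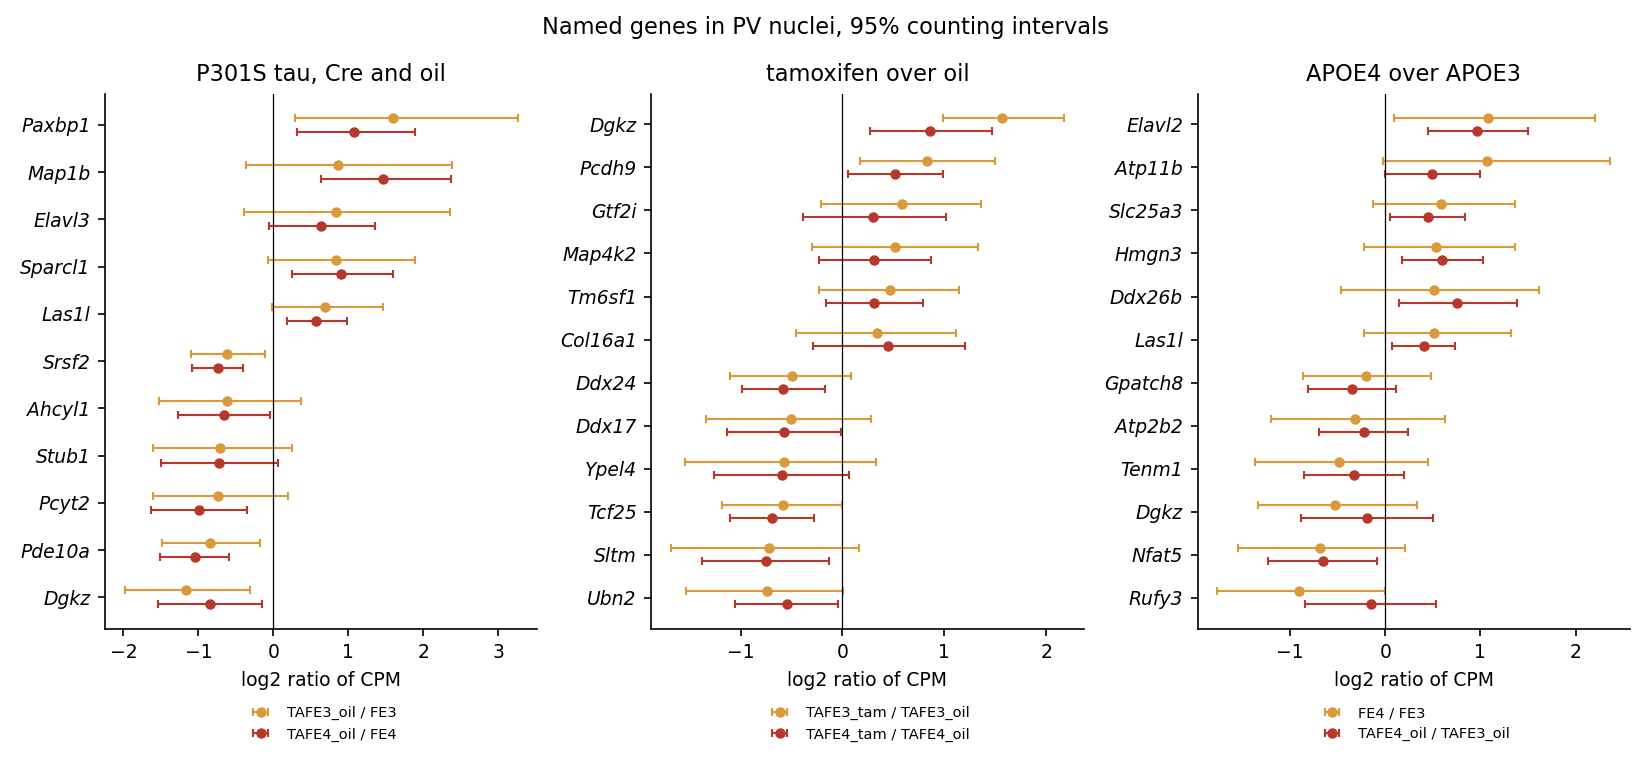
Log2 ratio (horizontal axes) with exact 95% counting intervals of named genes (vertical axes) of the tau, tamoxifen and APOE4 against APOE3 comparisons in parvalbumin nuclei, with 1 colour for each pair of libraries. Pde10a lies at −0.85 and −1.05 in the tau pairs and Elavl2 at 1.08 and 0.97 in the APOE4 pairs, and many intervals cover 0.

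Tamoxifen libraries were set against oil libraries in tau mice. In TAFE3_tam against TAFE3_oil, 10 of 739 genes were past the fold upwards (1.35%) and 13 downwards (1.76%), 3.11% in all, and 7 and 20 with TMM scaling. In TAFE4_tam against TAFE4_oil, 14 of 1513 were past it upwards (0.925%) and 26 downwards (1.72%), 2.64% in all, and 25 and 16 with TMM. Of the 26, 9 were mitochondrially encoded, with a list median of −1.14 in parvalbumin nuclei and −1.12 in other GABA nuclei. The signs matched in 191 of 371 eligible genes. Sltm gave −0.72 and −0.75, Tcf25 −0.58 and −0.69, and Ddx17, an RNA helicase gene, −0.51 and −0.57 in the APOE3 and APOE4 pairs. Pcdh9, a protocadherin gene, stood at 326.3 CPM in TAFE3_tam and 183 in TAFE3_oil (0.83, 0.17 to 1.50), and at 400.7 CPM in TAFE4_tam and 280.1 in TAFE4_oil (0.52, 0.06 to 0.99). Dgkz, a diacylglycerol kinase gene, gave 1.57 and 0.86, and the first was 0.32 (−0.46 to 1.08) without the nucleus with cerebellar markers. Pcp2 and Itpr1, also past the fold in TAFE3_tam, rested on that nucleus. Without it Pcp2 was at 0 UMIs in TAFE3_tam, and Itpr1 at 0.23 in place of 2.43.

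Within TAFE3_tam against TAFE3_oil, parvalbumin markers had a median of −0.55 over 13 members, with 1 higher and 12 lower, beside −0.08 for all genes and −0.04 in other GABA nuclei. Of the 13 intervals 3 lay below 0 and 0 above. Without the nucleus with cerebellar markers the median was −0.31, with 3 higher and 10 lower, and 2 intervals lay below 0. Kcnc1 stood at 458.3 CPM in TAFE3_tam and 736.7 in TAFE3_oil (−0.68, −1.14 to −0.24), and its ratio was −0.45 (−0.90 to −0.01) without that nucleus. In TAFE4_tam against TAFE4_oil the list median was −0.22 over 22 members, and Kcnc1 stood at 1209 CPM in TAFE4_tam and 991.5 in TAFE4_oil (0.29, 0.04 to 0.54). The difference between the APOE backgrounds was not tested.

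**Figure D4:**
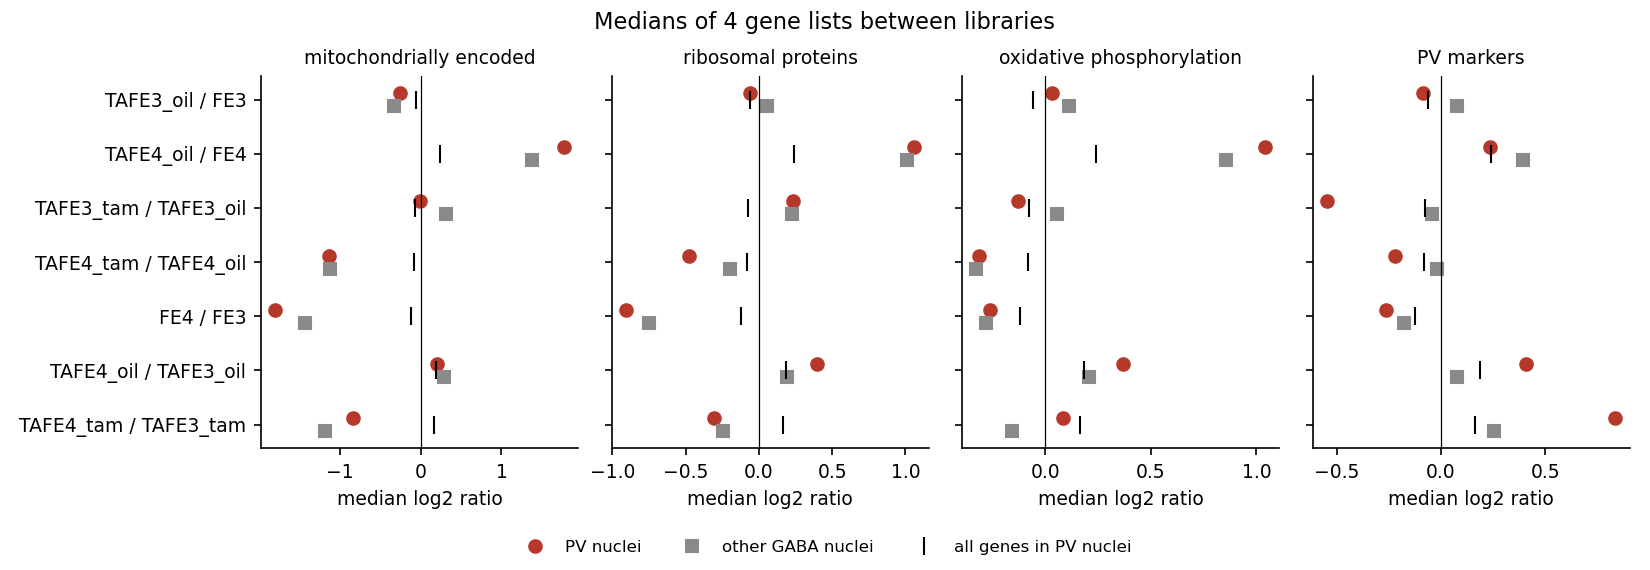
Median log2 ratio (horizontal axis) of 4 gene lists in 7 comparisons between libraries (vertical axis), with circles for parvalbumin nuclei, squares for other GABA nuclei and ticks for the median of all genes in parvalbumin nuclei. Mitochondrially encoded genes reach 1.77 in TAFE4_oil against FE4 and −1.80 in FE4 against FE3, and the squares follow at 1.38 and −1.43.

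APOE4 was set against APOE3 in 3 pairs. In FE4 against FE3, 6 of 269 genes were past the fold upwards (2.23%) and 18 downwards (6.69%), 8.92% in all, and 21 and 10 with TMM scaling. Of the 18, 8 were mitochondrially encoded. In TAFE4_oil against TAFE3_oil, 21 of 1203 were past it upwards (1.75%) and 5 downwards (0.416%), 2.16% in all, and 11 and 13 with TMM. In TAFE4_tam against TAFE3_tam, 43 of 1063 were past it upwards (4.05%) and 19 downwards (1.79%), 5.83% in all. Elavl2, a neuronal RNA-binding protein gene, stood at 433 CPM in FE4 and 205.6 in FE3 (1.08, 0.10 to 2.21), at 431.3 CPM in TAFE4_oil and 220.5 in TAFE3_oil (0.97, 0.45 to 1.50), and at 297 CPM in TAFE4_tam and 240.8 in TAFE3_tam. Both TAFE4_oil and FE4 lay above the other 4 libraries. Of 139 eligible genes 56 had the same sign in the FE and oil pairs.

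Parvalbumin markers were higher in TAFE4_tam than in TAFE3_tam in 13 of 15 members, with a median of 0.84 beside 0.16 for all genes and 0.25 in other GABA nuclei. Of the 15 intervals 4 lay above 0 and 0 below. Without the nucleus with cerebellar markers the median was 0.60, again with 13 of 15 higher, and 3 intervals lay above 0. Kcnc1 gave 1.40 (1.00 to 1.82), and 1.16 (0.76 to 1.59) without that nucleus. Fast-spiking channels did not move one way in the 3 pairs. In FE4 against FE3, 2 members were higher and 9 lower, with a median of −0.40 beside −0.12 for all genes. In TAFE4_oil against TAFE3_oil, 18 were higher and 2 lower, 6 of the 20 intervals lay above 0, and the median was 0.51 (0.32 with TMM scaling) beside 0.19 for all genes and 0.05 in other GABA nuclei. In TAFE4_tam against TAFE3_tam, 12 were higher and 6 lower, and 10 and 8 without the nucleus with cerebellar markers.

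Some peptide genes stood high in the parvalbumin nuclei of both TAFE4 libraries. Scg2, a secretogranin of dense-core vesicles, was at 386.4 CPM in TAFE4_tam, 360.1 in TAFE4_oil, 161.5 in FE4, 147.6 in TAFE3_tam, 187.7 in TAFE3_oil and 185 in FE3. The 2 TAFE4 values lay above the other 4, while other GABA nuclei held 274 CPM in FE4 to 387.9 CPM in TAFE4_oil. Scg2 gave 1.39 (0.68 to 2.17) in TAFE4_tam against TAFE3_tam, 0.94 (0.38 to 1.52) in TAFE4_oil against TAFE3_oil and 1.16 (0.46 to 1.91) in TAFE4_oil against FE4. Vgf, a granule protein induced by activity, was at 218.3 CPM in TAFE4_tam, 293.4 in TAFE4_oil, 58.71 in FE4, 170.9 in TAFE3_tam, 122 in TAFE3_oil and 61.67 in FE3. It gave 0.35 (−0.37 to 1.13) in TAFE4_tam against TAFE3_tam, 1.27 (0.59 to 1.98) in TAFE4_oil against TAFE3_oil and 2.32 (1.26 to 3.59) in TAFE4_oil against FE4. Tac1 gave 1.64 (0.56 to 2.92), 1.36 (0.59 to 2.17) and 1.22 (0.36 to 2.19) in these comparisons. It was read in 17 of 51 nuclei of TAFE4_tam, 19 of 46 of TAFE4_oil, 7 of 28 of FE4, 2 of 19 of TAFE3_tam, 8 of 35 of TAFE3_oil and 4 of 12 of FE3. Cck, by contrast, gave ratios of 0.20 to 0.34, each with an interval that covered 0. Of 22 neuropeptide and receptor genes those with enough UMIs had a median of 1.39 over 7 members in TAFE4_tam against TAFE3_tam, 1.10 over 6 in TAFE4_oil against TAFE3_oil and 1.22 over 5 in TAFE4_oil against FE4, beside 0.07, 0.04 and 0.50 in other GABA nuclei and 0.16, 0.19 and 0.24 for all genes in parvalbumin nuclei. In these comparisons 3, 4 and 4 intervals lay above 0. The first median was 1.31 without the nucleus with cerebellar markers. Npy, a member, had 25 UMIs in TAFE4_tam, 17 of them in a single nucleus.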

How the data were processed

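Nuclear RNA was counted in 6 libraries, 1 per group. The authors deposited whole-number UMI count matrices. Cell Ranger 3.1.0 made them, per the file headers. The genome was mm10, per the submitters' processing notes, which also name Seurat without a role. The labels name both 3′ end sequencing and 5′ kits. The parvalbumin gate, the gene lists and the rules were chosen with earlier results of these data known.

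Sst nuclei held at least 3 UMIs of Sst and at most 1 of Pvalb. Other GABA nuclei were all remaining nuclei with at least 2 UMIs of Gad1 and Gad2 and at most 1 of Slc17a7. Doublets were called with scrublet (scanpy 1.11.5) and kept. Counts were summed per library and class and fitted with edgeR 4.0.16 in R 4.3.3 (TMM, filterByExpr, quasi-likelihood test, library as block), without the gate genes. The pairing of class sums comes from the library itself. DESeq2 1.42.0 was an alternative. The scripts were tested on simulated data. Ratios between libraries have exact conditional binomial 95% intervals (scipy 1.17.1), with counts under 3 set to 3.

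Genes were named by fixed rules. Against each class, the 12 highest and 8 lowest log2 differences were taken with adjusted p under 0.05, at least 100 CPM in the higher class and the same sign in 6 libraries. Between libraries, 6 genes a direction were taken, ranked by the weaker ratio of 2 pairs with the same sign. Members of the lists were also named, and some genes within these rules are not reported here. Windows before RefSeq starts were matched by symbol, 6635 of 8821 tested genes having one.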

Additional observations from a re-analysis of the deposited data

Results flagged for a closer look

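The share of parvalbumin nuclei among GABA nuclei stood out because the difference between tamoxifen and oil libraries had opposite signs in the APOE3 and APOE4 mice. On the log2 scale it was −1.09 in TAFE3_tam against TAFE3_oil (19 of 703 and 35 of 609 GABA nuclei) and 0.67 in TAFE4_tam against TAFE4_oil (51 of 785 and 46 of 1127). With 1 library per group the difference between the backgrounds was not tested. The signs were not opposite at no more than 1% mitochondrial UMIs (5.56% in TAFE3_tam and 6.85% in TAFE3_oil, 6.14% in TAFE4_tam and 6.22% in TAFE4_oil), nor when nuclei were thinned to 1500 UMIs (0.797% in TAFE3_tam and 0.424% in TAFE3_oil, 1.61% in TAFE4_tam and 0.444% in TAFE4_oil). They stayed opposite at 3 or more Pvalb UMIs, with no mitochondrial limit, with at least 1000 UMIs per nucleus and without the called doublets. GABA nuclei made up 6.50% of kept nuclei in TAFE3_tam and 5.24% in TAFE3_oil, and 5.44% in TAFE4_tam and 8.64% in TAFE4_oil.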

How the results depend on the processing

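For the 17 results that answer a comparison, 123 recomputed values stayed near the value reported and 42 moved. Of the recomputed list medians between libraries, 511 stayed near the value reported and 126 moved. With TMM scaling 43 moved and 34 stayed, and at no more than 1% mitochondrial UMIs 25 moved and 8 stayed. At 3 or more Pvalb UMIs 10 moved and 12 stayed, and at 100 or more UMIs per gene 13 moved and 30 stayed. With TMM scaling the balance of genes past the fold upwards and downwards turned to 25 and 16 in TAFE4_tam against TAFE4_oil, 21 and 10 in FE4 against FE3, and 11 and 13 in TAFE4_oil against TAFE3_oil. Genes that rose and fell against other GABA nuclei numbered 302 and 341 with DESeq2's Wald test, 158 and 219 at no more than 1% mitochondrial UMIs (4 libraries), 68 and 118 at 3 or more Pvalb UMIs (3 libraries), and 325 rose with no filter on low counts. Against Sst nuclei they numbered 171 and 181 with DESeq2, 100 and 116 at 1%, and 92 and 90 at 3 Pvalb UMIs, and 495 fell with no filter. Leaving out each library in turn gave 313 to 515 that rose and 387 to 598 that fell against other GABA nuclei, and 216 to 349 and 233 to 345 against Sst nuclei, lowest without TAFE4_tam. Without the library as a replicate block, 366 rose and 404 fell against other GABA nuclei, and 249 and 248 against Sst nuclei. Without the called doublets the counts were 495 and 587, and 320 and 332. With at least 3000 UMIs per nucleus, chosen after seeing the data, they were 410 and 475, and 279 and 274. Without the nucleus with cerebellar markers, also chosen after, they were 520 and 612, and 347 and 329.

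Genes past the fold at no more than 1% mitochondrial UMIs numbered 31 in TAFE4_oil against FE4 and 9 in TAFE4_oil against TAFE3_oil. At 3 Pvalb UMIs they numbered 15 in TAFE4_tam against TAFE4_oil, and without the nucleus with cerebellar markers 15 in TAFE3_tam against TAFE3_oil. At 100 or more UMIs they numbered 7 in TAFE3_oil against FE3, 23 in TAFE4_oil against FE4, 3 in TAFE3_tam against TAFE3_oil, 13 in TAFE4_tam against TAFE4_oil, 7 in FE4 against FE3, 3 in TAFE4_oil against TAFE3_oil and 14 in TAFE4_tam against TAFE3_tam.

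At 3 or more Pvalb UMIs the share of GABA nuclei was 2.80% in TAFE4_tam, 1.78% in TAFE4_oil, 1.55% in FE4, 1.14% in TAFE3_tam, 1.64% in TAFE3_oil and 1.46% in FE3. Thinned to 1500 UMIs, it was 1.61% in TAFE4_tam, 0.444% in TAFE4_oil, 1.73% in FE4, 0.797% in TAFE3_tam, 0.424% in TAFE3_oil and 1.44% in FE3, from 1 to 5 nuclei a library. At 1% mitochondrial UMIs it was 6.14% in TAFE4_tam, 6.22% in TAFE4_oil, 5.84% in FE4, 5.56% in TAFE3_tam, 6.85% in TAFE3_oil and 4.44% in FE3. The sign of TAFE3_tam against TAFE3_oil turned with thinning, and that of TAFE4_tam against TAFE4_oil at 1% mitochondrial UMIs. The cause of these shifts was not tested. Of 200 calls of list members against other GABA nuclei, a gene counting once in each list, 134 were kept with DESeq2, 125 without the library block, 84 of the 186 still tested at 1% mitochondrial UMIs, and 44 at 3 Pvalb UMIs, where 3 turned sign. Depth limits the ratios: FE3 held 48644 parvalbumin UMIs and TAFE4_tam 279478.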

Other observations

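Among the parvalbumin nuclei, some genes were spread unevenly. The ratio of variance to mean, allowing for depth, was taken over 190 nuclei, without the one with cerebellar markers, and had a median of 1.10 over 3225 genes with at least 50 UMIs. Genes are named here after their values were seen. Tac1 reached 3.82, with UMIs in 57 nuclei and up to 11 in a nucleus. Npy reached 3.78, with 29 nuclei and up to 17, and Ntng1, a netrin-related adhesion gene, 4.07, with 39 nuclei and up to 16. Tshz2, a transcription factor gene, reached 3.85, with UMIs in 20 nuclei. Cnr1 reached 3.67, with 37 nuclei and up to 28 in a single TAFE3_oil nucleus. Grin2a reached 5.39, with 94 nuclei. Human APOE reached 19.99, with UMIs in 181 nuclei and up to 120 in a nucleus, and Cst3 reached 5.13.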
